A study of Mus musculus with 12 samples.

Results

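The adrenomedullin, endothelin and angiotensin axis was followed through 9 genes of mouse lung, out of 35599 in the deposited table: the ligand genes Adm and Edn1, the receptor genes Calcrl and Ednra, the co-receptor genes Ramp1, Ramp2 and Ramp3, and the enzyme genes Ace and Nos3. They were taken by gene name, 1 row each, with earlier results of these data known. RNA came from 12 lung samples in 3 groups of 4. Saline-treated lung was the control. In AE-PF lung, a model of pulmonary fibrosis with acute exacerbation, bleomycin, which injures and scars the lung, was combined with lipopolysaccharide (LPS), a bacterial trigger of inflammation, and no drug followed. The ND-RHL group had the same challenge and was then given liposomes loaded with nintedanib, a receptor tyrosine kinase inhibitor, and dexamethasone, a glucocorticoid, with hyaluronic acid and RGD peptides on their surface. The sources used here do not state strain, sex, age, doses or days. The liposome's carrier and its drugs act together in ND-RHL lung and cannot be told apart in these 3 groups. The angiotensin arm of the axis rests on Ace alone among the 9.

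Adrenomedullin is a peptide that relaxes vessels and tightens the endothelial barrier. Its receptor Calcrl reaches the cell surface only with a receptor activity-modifying protein (RAMP): with Ramp1 the pair binds calcitonin gene-related peptide (CGRP), and with Ramp2 or Ramp3 it binds adrenomedullin. The endothelin peptide encoded by Edn1 constricts vessels through Ednra on smooth muscle cells, whereas the other endothelin receptor, Ednrb, clears the peptide on endothelium. Ace, an enzyme on the luminal face of lung capillaries, makes angiotensin II and degrades bradykinin. Nos3, the endothelial nitric oxide synthase, makes the gas that relaxes the underlying muscle.

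Between 16152379 and 21667129 fragments per library fell on genes. FPKM is the number of fragments per kilobase of gene, scaled to the library's total, so levels can be compared between genes. All 9 members stood above an FPKM of 1 in all 12 libraries, from 1.91 (Nos3 in AE-PF library 1) to 243 (Calcrl in ND-RHL library 2), and all passed the filter on low values. The 14 endothelial markers were detected in every library, the lowest value being 6.53 (Emcn). AE-PF library 2 and ND-RHL library 4 stood apart from the other 10 by transcripts of squamous epithelium and skeletal muscle. The summed FPKM of 8 squamous markers was 1761 and 5831 in these libraries and 0.488 to 12.6 in the others, and that of 8 skeletal muscle markers was 659 and 1616 against 3.55 to 125. For the members, where leaving them out ended a call or moved a called value by over 1.5 times, both values are given.

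Adm, Edn1, Ramp3, Ace and Ednra were the members that fell from AE-PF to ND-RHL, and the DNA upstream of their starts is shown so that these promoters can be compared. Of the 9 members, 7 had an entry in the RefSeq promoter table of GRCm38.p6. The stretches run from 250 to 16 bases before the RefSeq start, 5′ to 3′ on the gene's strand, at chr7:110627407-110627641 (plus strand) for Adm, chr13:42301226-42301460 (plus strand) for Edn1, chr11:6658283-6658517 (plus strand) for Ramp3, chr11:105967698-105967932 (plus strand) for Ace and chr8:77724468-77724702 (minus strand) for Ednra. Capitals mark matches to 5 motifs searched on both strands: ACGTG (hypoxia response core), CACCC (bound by KLF factors), TGANTCA (AP-1), the glucocorticoid response element (AGAACA and its reverse complement as an inverted repeat with 3 bases between) and the NF-kB motif (GGGA and, after any 4 bases, a pair of C).
Adm: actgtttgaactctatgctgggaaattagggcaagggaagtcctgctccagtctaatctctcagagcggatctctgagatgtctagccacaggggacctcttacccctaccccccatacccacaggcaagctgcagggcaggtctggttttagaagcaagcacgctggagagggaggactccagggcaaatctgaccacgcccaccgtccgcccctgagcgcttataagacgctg
Edn1: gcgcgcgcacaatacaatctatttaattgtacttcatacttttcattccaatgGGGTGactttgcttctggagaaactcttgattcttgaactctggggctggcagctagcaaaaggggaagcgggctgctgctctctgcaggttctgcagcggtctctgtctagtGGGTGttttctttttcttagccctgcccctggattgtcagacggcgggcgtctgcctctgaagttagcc
Ramp3: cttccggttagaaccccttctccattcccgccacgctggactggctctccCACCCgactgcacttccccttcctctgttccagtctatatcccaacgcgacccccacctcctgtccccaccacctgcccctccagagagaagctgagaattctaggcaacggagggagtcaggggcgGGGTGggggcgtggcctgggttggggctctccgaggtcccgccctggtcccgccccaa
Ace: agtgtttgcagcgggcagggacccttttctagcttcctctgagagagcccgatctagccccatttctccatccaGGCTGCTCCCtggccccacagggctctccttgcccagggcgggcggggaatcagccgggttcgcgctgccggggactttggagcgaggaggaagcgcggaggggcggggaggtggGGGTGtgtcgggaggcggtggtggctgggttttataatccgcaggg
Ednra: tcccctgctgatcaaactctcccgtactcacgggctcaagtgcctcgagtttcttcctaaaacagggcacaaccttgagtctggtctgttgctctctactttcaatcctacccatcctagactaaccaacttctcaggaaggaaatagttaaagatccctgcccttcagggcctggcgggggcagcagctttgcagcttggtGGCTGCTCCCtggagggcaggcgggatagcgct
Edn1 and Ramp3 each held 2 CACCC matches, Ace held 1 CACCC and 1 NF-kB match, Ednra held 1 NF-kB match, and the Adm stretch held none of the 5. Ramp1 and Calcrl, which did not fall and are not shown, held 2 and 1 CACCC matches. A second Ace window, which lies inside the gene, held 1 CACCC match. The Calcrl window also overlaps its gene in part, as GENCODE places the gene. No 2 matches overlapped. Among all 32851 promoter windows of this length, 49.9% held CACCC, 16.5% the NF-kB motif, 15.5% ACGTG, 6.48% TGANTCA and 0.00913% the glucocorticoid element. A match is a string of letters and not a measured binding site, and no binding was measured here.

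AE-PF lung was first set against saline lung, to see what the challenge did. Of the 9 members, 4 passed the test between AE-PF and saline lung: Ramp2, Nos3 and Ramp1 fell and Ramp3 rose. Calls (adjusted p under 0.05) were made for 56.6% of the 15164 genes tested, 26.4% higher and 30.2% lower, so that 4 of 9 lies below the share of all genes. The second comparison asked what the liposomes changed in challenged lung. Here 6 of the 9 passed: Edn1, Ramp3, Ace, Adm and Ednra fell and Ramp2 rose, against 41.8% of all genes called, 24.3% higher and 17.4% lower. Between ND-RHL and saline lung 3 of the 9 passed, Nos3, Ramp2 and Adm, all lower, against 21.9% of all genes, 13.3% higher and 8.65% lower. The median log2 difference over the 9 members was -0.16, -0.22 and -0.37 in these comparisons, and over all genes tested -0.03, 0.06 and 0.03. The comparisons share groups: AE-PF stands in the first and second, saline in the first and last, and ND-RHL in the second and last.

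**Figure D1:**
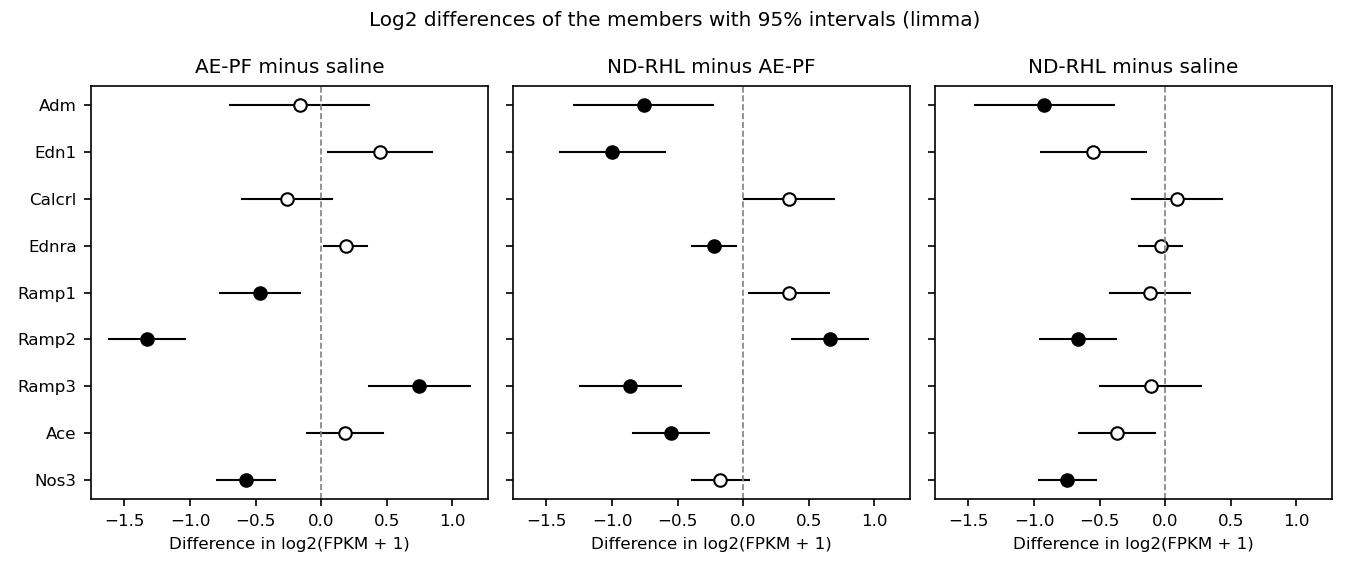
Differences in log2(FPKM + 1) of the 9 members (y axis) in the 3 comparisons (panels), with 95% intervals from limma. Filled points passed an adjusted p of 0.05. Ramp2 lies farthest to the left in AE-PF minus saline (-1.33) and is the only filled point on the right in ND-RHL minus AE-PF (0.66).

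Adm (ENSMUSG00000030790, GRCm38 chromosome 7, 110627661 to 110629820, plus strand) encodes the adrenomedullin precursor. Its FPKM was 13.0, 13.6, 9.07 and 11.4 in saline libraries 1 to 4, 6.50, 18.5, 8.94 and 10.2 in AE-PF, and 6.17, 4.47, 6.37 and 5.86 in ND-RHL. AE-PF spread widely, with library 2 highest of all 12 and library 1 among the lowest, whereas every ND-RHL library lay below every saline and every AE-PF library. The group means were 11.8 ± 2.03, 11.0 ± 5.19 and 5.72 ± 0.856 (SD, n = 4). On the log2 scale ND-RHL minus AE-PF was -0.76 (SE 0.24; adjusted p = 0.0265, limma) and ND-RHL minus saline -0.92 (adjusted p = 0.0207). AE-PF and saline differed by -0.16, with a 95% interval of -0.69 to 0.37 (adjusted p = 0.587, limma), and this difference was 0.03 without AE-PF library 1 (0.909) and -0.42 without AE-PF library 2 (0.0513). The size of the fall from AE-PF rested partly on library 2: without it the difference was -0.50 (adjusted p = 0.038), and without both libraries that stand apart it was -0.51 and did not pass (0.0517). The call was also lost without ND-RHL library 2 (0.068), and that against saline without saline library 1 (0.0565), saline library 2 (0.0612) or ND-RHL library 2 (0.0583).

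Edn1 (ENSMUSG00000021367, GRCm38 chromosome 13, 42301476 to 42307990, plus strand) encodes the vasoconstrictor endothelin made mainly by endothelium and airway epithelium. Its FPKM was 18.5, 20.8, 16.2 and 14.4 in saline, 15.4, 25.5, 29.6 and 28.3 in AE-PF, and 11.0, 12.6, 12.7 and 10.00 in ND-RHL. Of the AE-PF libraries, 3 lay above every saline library and library 1 lay within their range; all ND-RHL libraries lay below both other groups. The fall from AE-PF to ND-RHL, from 24.7 ± 6.43 to 11.6 ± 1.32 (n = 4), was -0.997 on the log2 scale (SE 0.18; adjusted p = 0.00158, limma). AE-PF was 0.45 above saline (17.5 ± 2.76) and did not pass (adjusted p = 0.0543, limma). This difference passed in 6 of 22 alternative fits. Among them were those without AE-PF library 1 (0.65, 0.0015) or saline library 2 (0.53, 0.0424). Others were equal FPKM totals (0.58, 0.023) and array weights (0.58, 0.00278). ND-RHL was -0.55 relative to saline, also just outside the threshold (adjusted p = 0.0515, limma). It was inside the threshold in 7 of 22 alternative fits, among them those without AE-PF library 1 (0.00889) or AE-PF library 3 (0.0497). A predicted gene on the opposite strand, Gm47118, overlaps Edn1 and had 1.17 to 2.76 in AE-PF and 0.137 to 0.808 in the other libraries.

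**Figure D2:**
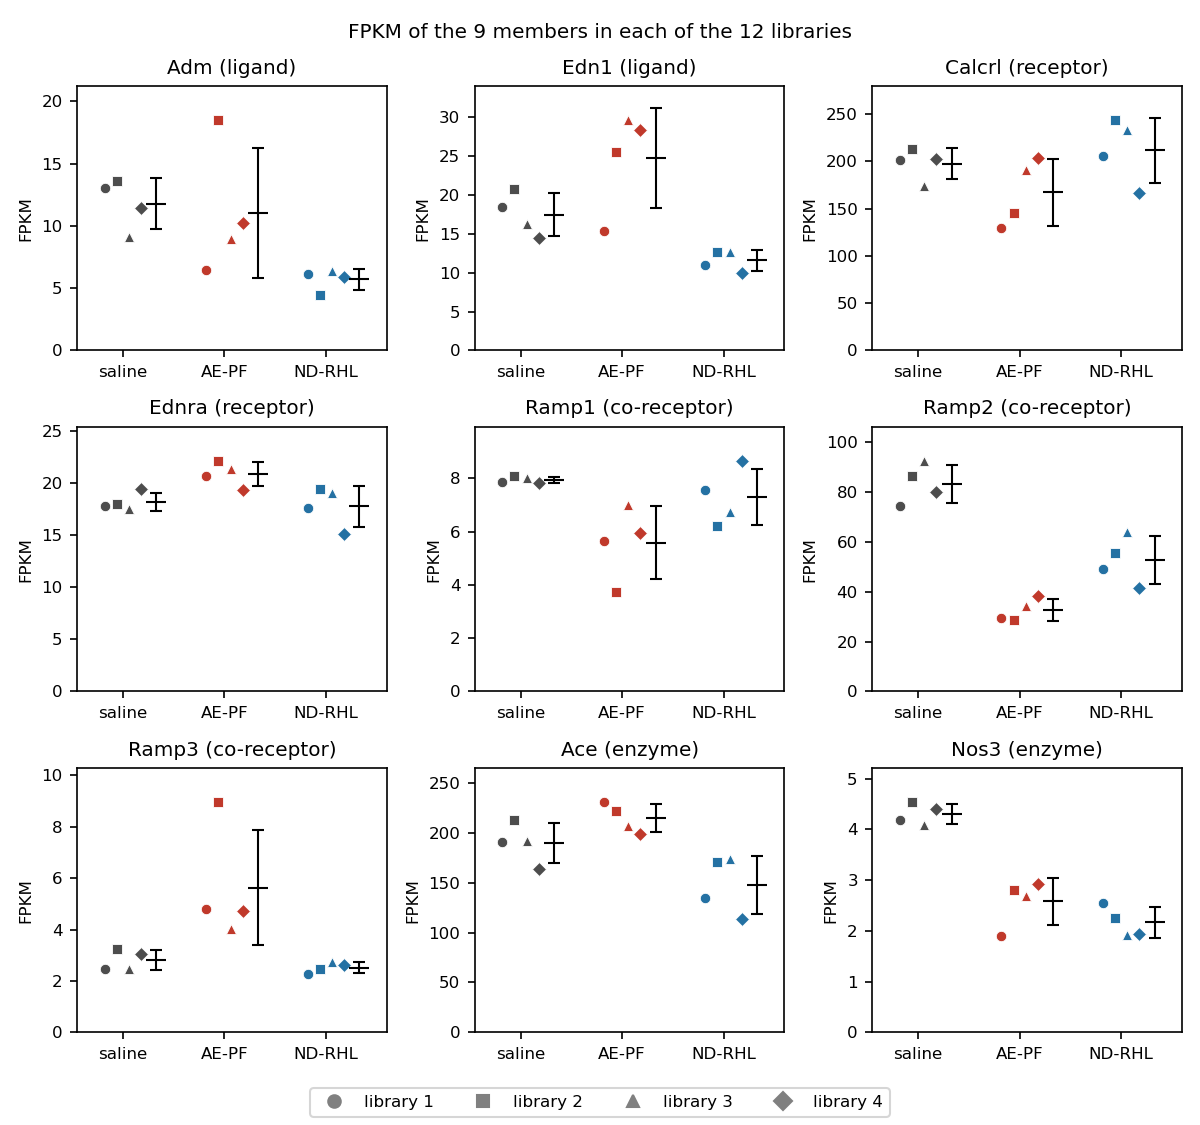
FPKM (y axis, from 0) of the 9 members in saline, AE-PF and ND-RHL lung. Each point is a library, its shape gives the library number, and the bar beside each group is the mean with its SD (n = 4). The ND-RHL points of Adm and Edn1 lie below all points of the other groups, and the Ramp2 groups do not overlap.

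Of the receptor genes, Calcrl passed the test in no comparison and Ednra in 1. Calcrl (ENSMUSG00000059588, GRCm38 chromosome 2, 84330626 to 84425411, minus strand), the receptor for adrenomedullin and CGRP, was among the most abundant members, with 201, 213, 174 and 202 in saline, 130, 145, 190 and 203 in AE-PF and 205, 243, 233 and 166 in ND-RHL. AE-PF libraries 1 and 2 were the lowest of the 12, and the groups overlapped. AE-PF minus saline was -0.26 (95% interval -0.60 to 0.08; adjusted p = 0.178, limma); omitting AE-PF library 1 gave -0.15 (0.445). ND-RHL minus AE-PF was 0.35 (adjusted p = 0.0953), which passed without AE-PF library 4 (0.45; 0.0409) or ND-RHL library 4 (0.46; 0.0317) and was 0.24 without AE-PF library 1 (0.258). Ednra (ENSMUSG00000031616, GRCm38 chromosome 8, 77663031 to 77724464, minus strand), the constrictor receptor of muscle cells, had 17.8, 18.0, 17.5 and 19.5 in saline, 20.7, 22.1, 21.4 and 19.3 in AE-PF and 17.6, 19.4, 19.1 and 15.1 in ND-RHL. AE-PF library 4 lay within the upper end of both other groups, the other 3 AE-PF libraries lay above them, and saline and ND-RHL overlapped broadly. The fall from AE-PF to ND-RHL was small, -0.22 (SE 0.08, adjusted p = 0.0337, limma), and 9 of 22 alternative fits lost the call. Among them were those without AE-PF library 1 (0.0658), 2 (-0.20, 0.0803) or 3 (0.0687), and without ND-RHL library 1 (0.0681) or 4 (-0.15, 0.0645). Without both libraries that stand apart the difference was -0.12 (0.128). AE-PF minus saline was 0.19 (adjusted p = 0.0513) and passed in 10 of 22 alternatives, including those without saline library 4 (0.0422), AE-PF library 4 (0.0371), ND-RHL library 2 (0.0465) and ND-RHL library 4 (0.0136).

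The 3 co-receptor genes went different ways. Ramp2 (ENSMUSG00000001240, GRCm38 chromosome 11, 101246028 to 101259546, plus strand), the main partner of Calcrl for adrenomedullin in vessels, had an FPKM of 74.5, 86.6, 92.3 and 79.8 in saline, 29.6, 28.6, 34.4 and 38.2 in AE-PF, and 49.2, 55.6, 64.1 and 41.6 in ND-RHL. No library of a group overlapped another group: saline was highest, ND-RHL intermediate and AE-PF lowest. Groups that do not overlap were found for 54.3% of all genes tested between AE-PF and saline (25.3% higher, 29% lower), for 36.8% between ND-RHL and AE-PF (21.2% higher, 15.6% lower) and for 29.9% between ND-RHL and saline (18.1% higher, 11.8% lower). The mean fell from 83.3 ± 7.77 to 32.7 ± 4.47 in AE-PF, and stood at 52.6 ± 9.58 in ND-RHL (n = 4). The log2 differences were -1.33 (SE 0.13; adjusted p = 1.32e-05, limma) for AE-PF minus saline, 0.66 (0.0025) for ND-RHL minus AE-PF and -0.67 (0.00576) for ND-RHL minus saline. All 3 calls held in all 22 alternative fits. Vps25, which overlaps Ramp2 on the same strand, stood at 0.0674 to 0.493 in the 12 libraries. How reads and bases shared by the 2 genes were counted is not stated. The bearing of the overlap on the level of Ramp2, and so on its share of RAMP transcripts, cannot be told.

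Ramp3 (ENSMUSG00000041046, GRCm38 chromosome 11, 6658521 to 6677475, plus strand), the alternative adrenomedullin partner, had the lowest saline level of the 9, at 2.47, 3.25, 2.48 and 3.06. It stood at 4.81, 8.94, 4.02 and 4.72 in AE-PF and 2.27, 2.47, 2.73 and 2.62 in ND-RHL. Every AE-PF library was above every other library, and library 2 lay far above its group. The rise was 0.75 (SE 0.18; adjusted p = 0.00371, limma) and the fall with ND-RHL -0.86 (0.00289), while ND-RHL and saline differed by -0.11 (95% interval -0.50 to 0.27; adjusted p = 0.688). Without AE-PF library 2 the rise was 0.54 (adjusted p = 0.000722). These values rest on 55 to 223 fragments a library. Ramp1 (ENSMUSG00000034353, GRCm38 chromosome 1, 91179822 to 91225196, plus strand), the CGRP partner, fell from 7.87, 8.09, 8.01 and 7.83 in saline to 5.64, 3.74, 7.02 and 5.94 in AE-PF. AE-PF library 2 was the lowest and library 3 came nearest to saline, without reaching it. The difference was -0.47 (SE 0.14; adjusted p = 0.0137, limma), and -0.32 without AE-PF library 2 (0.017). In ND-RHL Ramp1 was 7.58, 6.23, 6.72 and 8.64, a difference from AE-PF of 0.35 that did not pass (adjusted p = 0.0641). It passed without AE-PF library 3 (0.45; 0.0205), and was 0.20 without AE-PF library 2 (0.127) and 0.12 without both libraries that stand apart (0.25).

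These changes altered the make-up of RAMP transcripts in whole lung. The shares pool all cell types and are not the co-receptors of a single cell type. The part of cell make-up in them was not tested. Ramp2 made up 87.8%, 88.4%, 89.8% and 88.0% of the summed RAMP FPKM in saline, 73.9%, 69.3%, 75.7% and 78.2% in AE-PF, and 83.3%, 86.5%, 87.2% and 78.7% in ND-RHL. No group overlapped another, although ND-RHL library 4 came close to AE-PF library 4. The mean share was 88.5% ± 0.895, 74.3% ± 3.75 and 83.9% ± 3.86 (SD, n = 4), and each of the 3 differences had an exact permutation p of 0.0286, the smallest that 70 labelings allow (0.0429 adjusted over 9 tests, 2-sided). Set against Ramp1 alone, the log2 difference of Ramp2 and Ramp1 changed by -0.86 from saline to AE-PF (adjusted exact permutation p = 0.0429), but the difference of 0.31 between ND-RHL and AE-PF did not pass (0.314). The lower share against saline after treatment was -4.60 percentage points, and -2.85 without ND-RHL library 4. The Ramp3 share went from 3.00% ± 0.442 in saline to 13.0% ± 5.89 in AE-PF and 4.09% ± 0.590 in ND-RHL (exact permutation p = 0.0286 for each pair of groups; 0.0429 adjusted). AE-PF library 2 reached 21.7%, and without it the difference from saline was 7.18 in place of 10.0 percentage points. The Ramp1 share was 8.49% ± 0.624, 12.7% ± 2.77 and 12.0% ± 3.33, and no difference passed (adjusted exact permutation p of 0.0643, 0.771 and 0.0643).

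**Figure D3:**
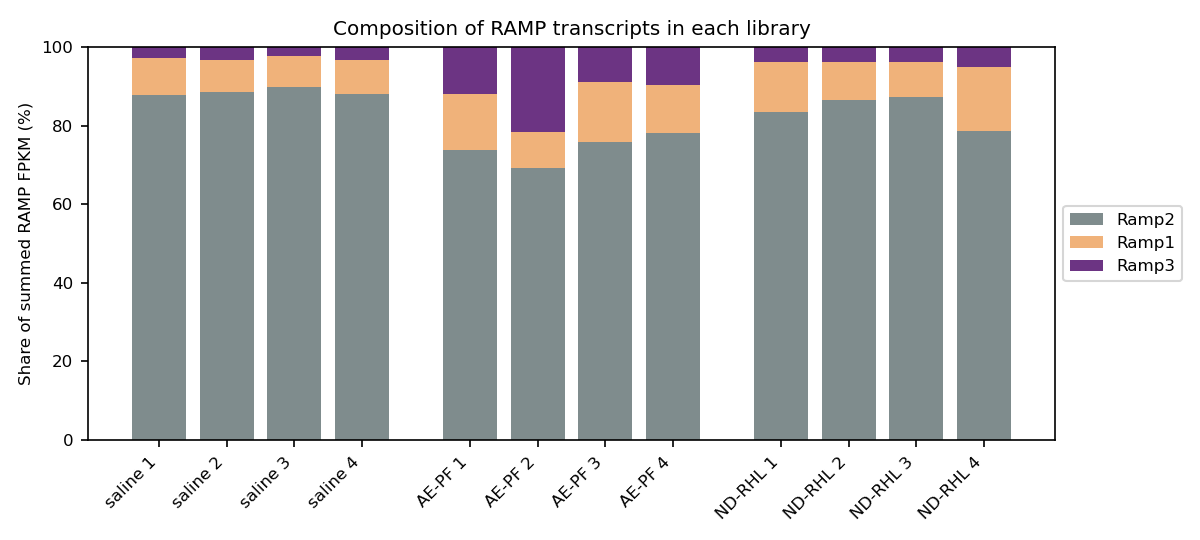
Share of Ramp1, Ramp2 and Ramp3 in the summed RAMP FPKM (y axis, percent) of each of the 12 libraries (bars). The Ramp2 part is 87.8% or more in saline libraries and 78.2% or less in AE-PF libraries, and the Ramp3 part is thickest in AE-PF library 2.

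The enzyme genes differed in how they stood after treatment. Ace (ENSMUSG00000020681, GRCm38 chromosome 11, 105967945 to 105989964, plus strand) had 191, 212, 192 and 163 in saline, 230, 221, 207 and 199 in AE-PF, and 134, 170, 174 and 114 in ND-RHL. The AE-PF libraries overlapped the saline ones, and all ND-RHL libraries lay below all AE-PF libraries. The fall from 214 ± 14.1 to 148 ± 29.0 (n = 4) was -0.55 (SE 0.13; adjusted p = 0.00685, limma) and held in all 22 alternative fits. AE-PF minus saline was 0.18 (95% interval -0.11 to 0.47, adjusted p = 0.265, limma), and ND-RHL minus saline -0.37 (0.0663). The latter passed in 4 of 22 alternative fits, among them without ND-RHL library 3 (0.0358) and with the replicate number as a block (0.0348).

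Nos3 (ENSMUSG00000028978, GRCm38 chromosome 5, 24364810 to 24384474, plus strand) had 4.18, 4.53, 4.09 and 4.4 in saline, 1.91, 2.81, 2.69 and 2.93 in AE-PF, and 2.55, 2.26, 1.92 and 1.93 in ND-RHL. Both challenged groups lay wholly below saline and overlapped each other. The log2 difference from saline was -0.57 in AE-PF (SE 0.10; adjusted p = 0.000534, limma) and -0.75 in ND-RHL (0.000796). The difference between the 2 challenged groups was -0.17 (95% interval -0.39 to 0.05, adjusted p = 0.182, limma). Leaving out AE-PF library 1 brought it past the threshold (-0.27, 0.0239), as did quantile normalisation (-0.30, 0.0257). Nos3 rests on 134 to 374 fragments a library. Atg9b overlaps Nos3 on the opposite strand and stood at 0.232 to 0.456 in saline, 1.14 to 2.59 in AE-PF and 0.327 to 3.95 in ND-RHL. Whether the authors counted by strand is not stated, so reads of the overlap cannot be told apart.

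By level, Calcrl (174 to 213) and Ace (163 to 212) led in saline lung and overlapped each other. Ramp2 (74.5 to 92.3) came next, then Ednra (17.5 to 19.5) and Edn1 (14.4 to 20.8), which overlapped, Adm (9.07 to 13.6), Ramp1 (7.83 to 8.09), Nos3 (4.09 to 4.53) and Ramp3 (2.47 to 3.25). In AE-PF lung Edn1 (15.4 to 29.6) overlapped with Ednra (19.3 to 22.1) and with Ramp2 (28.6 to 38.2), whereas the saline ranges of Edn1 and Ramp2 did not meet. Ramp3 (4.02 to 8.94) lay above Nos3 (1.91 to 2.93) there, and the ranges of Ramp3 and Nos3 met in ND-RHL lung (2.27 to 2.73 and 1.92 to 2.55).

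Endothelial cells carry Calcrl, Ramp2, Ramp3, Edn1, Ace and Nos3, and the markers of these cells moved too. Of 14 endothelial markers 12 fell in AE-PF and 10 rose with ND-RHL relative to AE-PF, with a median log2 difference of -0.76 and 0.57. Their summed FPKM was 1405 to 1609 in saline, 646 to 950 in AE-PF and 1085 to 1531 in ND-RHL. Markers of capillary subtypes moved likewise, with 5 of 6 aerocyte and 3 of 6 general capillary markers lower in AE-PF and 5 and 4 higher with ND-RHL. Other vessels differed: 5 of 6 lymphatic markers rose in AE-PF (median 0.69) and 4 fell with ND-RHL (-0.53), and of 10 artery and vein markers 2 rose and 3 fell, then 3 rose and 2 fell. Over the same groups, 8 of 12 macrophage markers rose and then 8 fell, and 8 of 10 alveolar epithelial markers fell and then 8 rose. Of 8 heart muscle markers 7 fell (median -2.94) and then 6 rose (2.58), of 7 adipocyte markers tested 6 fell (-3.52) and then 4 rose (3.11), and of 10 fibroblast markers 6 fell and 2 rose, then 5 rose and 2 fell. The part of these shifts in the members' changes was not tested. For comparison, 26.4% of all genes tested rose and 30.2% fell in AE-PF, and 24.3% rose and 17.4% fell with ND-RHL. Fewer cells of a type and less RNA per cell cannot be told apart in whole lung. Each endothelial member was therefore also set against the mean log2 level of the 14 endothelial markers in the same library. These markers need not follow every source of a member: Edn1 is also made by airway epithelium, and lymphatic markers moved the other way. A gain or loss relative to them is therefore not a level per endothelial cell.

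Relative to the endothelial markers, Ramp2 was still lower in AE-PF, with a difference of -0.57 (from 0.12 ± 0.10 to -0.45 ± 0.08, SD, n = 4; exact permutation p = 0.0286, adjusted over 24 tests 0.049). After treatment its relative level was -0.34 ± 0.08, which differed from AE-PF by 0.11, short of the threshold (adjusted exact permutation p = 0.129), and from saline by -0.46 (0.049). Edn1 gained 1.20, Ramp3 1.5, Ace 0.94 and Calcrl 0.50 on the markers in AE-PF, each with an adjusted exact permutation p of 0.049, whereas the Nos3 difference of 0.18 did not pass (0.274). The value 0.049 is the adjusted form of 0.0286, the smallest p that 70 labelings allow. A pass here means only that the 2 groups did not overlap, and the tests share groups and the marker mean. The markers themselves fell in AE-PF (median -0.76), so a gene with an unchanged level gains on them. On their own level Edn1, Ace and Calcrl did not pass there (0.45, 0.18 and -0.26, adjusted p = 0.0543, 0.265 and 0.178, limma). Relative levels were not computed for all genes, so no share of passes stands beside these. From AE-PF to ND-RHL, the differences were -1.54 for Edn1, -1.41 for Ramp3, -1.10 for Ace and -0.72 for Nos3 (adjusted exact permutation p = 0.049 each), and -0.20 for Calcrl (0.229). Here the markers rose (median 0.57), so a gene with an unchanged level falls relative to them. Nos3 on its own level differed by -0.17 and did not pass (adjusted p = 0.182, limma). Against saline, the relative levels after treatment were lower for Nos3 (-0.54) and Edn1 (-0.34), higher for Calcrl (0.30; 0.049 each), and did not pass for Ace (-0.16; 0.0914) and Ramp3 (0.10; 0.499). With Pecam1 and Cdh5 as the only markers, the Calcrl difference from saline did not pass (0.18; 0.196) and that of Ace did (-0.28; 0.0429).

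**Figure D4:**
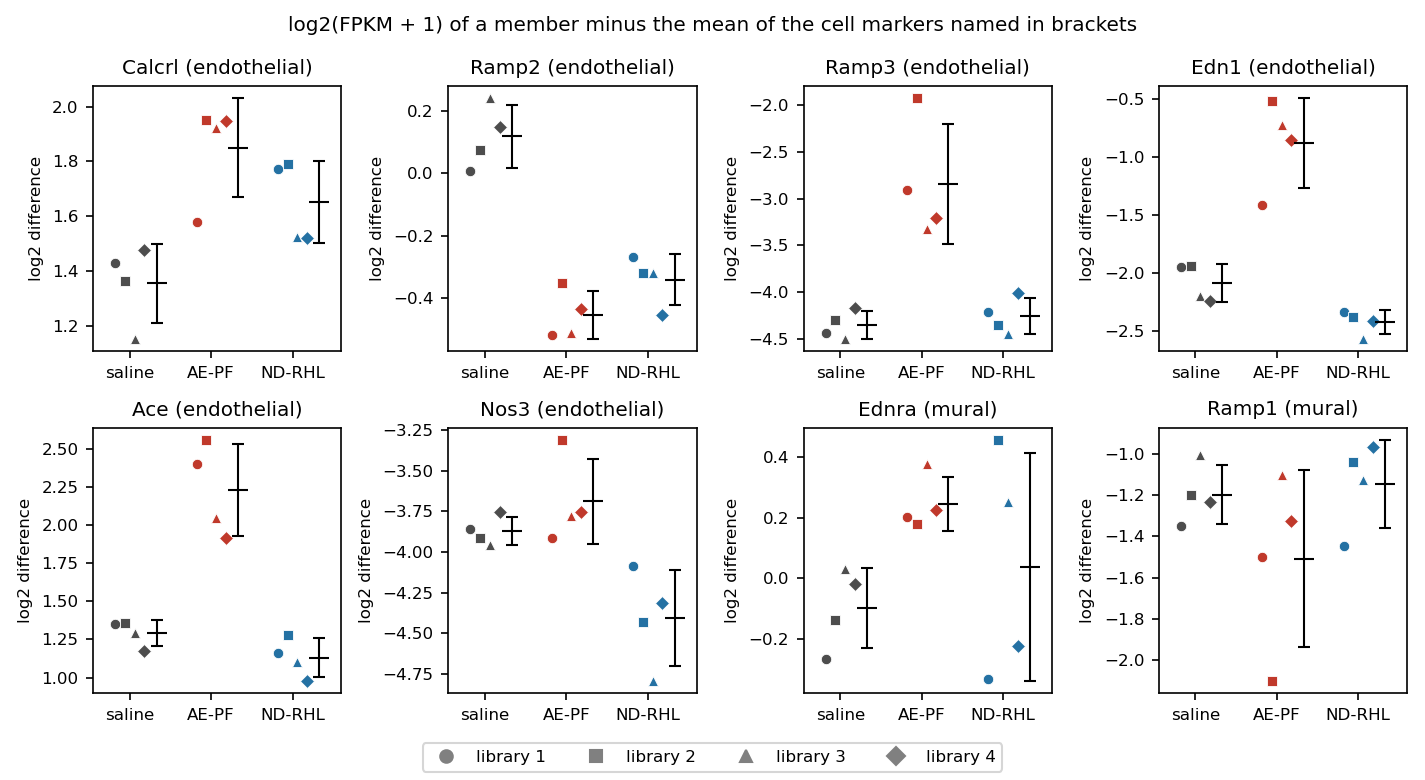
Level of each member relative to cell markers (y axis, log2(FPKM + 1) minus the mean of the markers) in the 3 groups. Points are libraries, and bars are the mean with its SD (n = 4). Edn1, Ace and Ramp3 lie above the saline points in all AE-PF libraries, and Ramp2 lies below them in all AE-PF and ND-RHL libraries.

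Ednra and Ramp1, which smooth muscle cells and pericytes express, were set against 12 mural markers, and these did not move as 1 group: 4 rose and 5 fell in AE-PF. Their summed FPKM was 309 to 376 in saline, 279 to 364 in AE-PF and 250 to 449 in ND-RHL. Ednra gained 0.35 on them in AE-PF (adjusted exact permutation p = 0.049), but with Pdgfrb and Notch3 as the only markers the difference was -0.15 (0.171). Its difference between ND-RHL and AE-PF likewise went from -0.21 (adjusted exact permutation p = 0.457) to 0.33 (0.0429). Ramp1 differed from the mural mean by -0.31 between AE-PF and saline (adjusted exact permutation p = 0.274), and by -0.81 with these 2 markers (0.0429). The direction for Ednra and the call for Ramp1 thus depended on the markers used.

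Other genes of the adrenomedullin and CGRP family moved in both directions. Of 10 listed, 6 passed the filter. In AE-PF 3 of these rose and 3 fell, against 26.4% and 30.2% of all genes tested, with a median log2 difference of -0.11. Ackr3, a scavenger receptor that binds adrenomedullin, rose from 17.8 ± 1.36 to 36.2 ± 6.19 and fell to 12.9 ± 1.91 with ND-RHL (adjusted p = 5.41e-05 and 2.42e-05, limma). Calca, the CGRP gene, rose from 0.656 ± 0.251 to 2.94 ± 1.21 and fell to 1.22 ± 0.496 (adjusted p = 0.00136 and 0.0206, limma). The fall, -0.80 on the log2 scale, was not called without AE-PF library 1 (0.053), AE-PF library 2 (0.0559) or ND-RHL library 3 (0.0606). Without both libraries that stand apart it was -0.64 and was not called (0.0787). Mme, a membrane peptidase that degrades vasoactive peptides, fell from 16.7 ± 0.515 to 5.13 ± 0.559 and rose to 13.8 ± 1.82 (7.83e-07 and 1.05e-05). Crcp, an intracellular partner of the receptor, also rose, and Pam, which amidates the peptides, and Gpr182 fell (log2 differences 0.34, -0.56 and -0.59); these 3 are named after their values were seen, to complete the counts. With ND-RHL relative to AE-PF, 1 of the 6 rose and 3 fell (median -0.14), against 24.3% and 17.4% of all genes.

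The rest of the endothelin system fell in AE-PF lung and rose again with ND-RHL: Ednrb, Edn3 and Ece1, all 3 of the 6 listed genes that passed the filter (median log2 differences -1.66 and 1.41). Of all genes tested, 30.2% fell in AE-PF and 24.3% rose with ND-RHL. Ednrb and Ece1 are expressed in lung endothelium, whose markers moved the same way (12 of 14 fell and 10 rose), and the part of this in their change was not tested. Ednrb, the clearance receptor, had 29.0, 30.3, 26.3 and 28.7 in saline, 7.24, 6.85, 6.99 and 8.06 in AE-PF and 21.2, 20.5, 26.6 and 16.8 in ND-RHL. No AE-PF library came near the other groups. Its log2 differences were -1.84 and 1.41 (adjusted p = 1.05e-06 and 1.79e-05, limma), beside 0.19 and -0.22 for Ednra. Edn3, another endothelin, went from 7.41 ± 0.378 to 1.79 ± 0.994 and 6.51 ± 1.27 (n = 4). Ece1, which cuts the precursor to the active peptide, went from 87.5 ± 4.17 to 55.5 ± 6.07 and 82.3 ± 12.6 (adjusted p = 0.000411 and 0.00233). Ednrb in ND-RHL differed from saline by -0.42 (adjusted p = 0.0197, limma), a call lost without saline library 1 (0.0512) or 2 (0.0583).

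Of 16 renin-angiotensin and kinin genes 12 passed the filter, and 3 rose and 2 fell in AE-PF, against 26.4% and 30.2% of all genes tested. Enpep, the aminopeptidase that degrades angiotensin II, fell from 42.6 ± 3.53 to 15.3 ± 5.37 and rose to 38.5 ± 6.15 (adjusted p = 0.00012 and 0.00059, limma). Prcp, a carboxypeptidase that also cuts angiotensin II, rose from 8.65 ± 0.429 to 19.3 ± 2.73 and stood at 15.2 ± 0.734 in ND-RHL, still above saline (0.000432). Bdkrb1, the inducible kinin receptor, rose from 2.24 ± 0.170 to 6.45 ± 0.179 and fell to 3.64 ± 1.00 (1.6e-05 and 0.00116). Cma1, a mast cell chymase gene, was 1.77 ± 1.07, 0.498 ± 0.295 and 3.25 ± 1.90, and passed as lower in AE-PF (adjusted p = 0.0468, limma) and higher with ND-RHL (0.00491). The Cma1 call in AE-PF was lost without saline library 1 (0.134) or 4 (0.119), AE-PF library 1 (0.119), 2 (0.0842) or 4 (0.0696), or ND-RHL library 3 (0.0581) or 4 (0.0568). Atp6ap2, the prorenin receptor, rose as well (log2 difference 0.45; named after its values were seen). Agt, the angiotensinogen gene (1.03 ± 0.154, 0.538 ± 0.346 and 0.786 ± 0.384), and Agtr1a, the main angiotensin receptor gene (5.69 ± 0.395, 5.90 ± 1.02 and 5.71 ± 0.775), passed in no comparison; without AE-PF library 2 (-0.57; 0.00804) or ND-RHL library 1 (0.0283) Agt passed as lower in AE-PF than in saline. With ND-RHL relative to AE-PF, 3 of the 12 rose and 3 fell, against 24.3% and 17.4% of all genes (list medians -0.02 and 0.03 in the 2 comparisons).

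Of 17 nitric oxide and cGMP genes 15 passed the filter, and 3 rose and 6 fell in AE-PF, against 26.4% and 30.2% of all genes tested. Nos2, the inducible synthase, rose from 1.06 ± 0.116 to 4.75 ± 1.68 and fell to 2.42 ± 0.514 (adjusted p = 0.000138 and 0.0166, limma), opposite to Nos3 in the first comparison. Arg1, which competes with the synthases for arginine, was 22.7, 66.2, 10.5 and 9.67 in AE-PF libraries and 0.796 to 0.974 in saline, and in ND-RHL it was 0.740, 1.64, 0.972 and 10.3. Its highest values in both challenged groups were in the libraries that stand apart. Cav1, which holds Nos3 inactive at caveolae, fell from 352 ± 21.9 to 192 ± 19.6 and rose to 331 ± 46.4, and Pde5a, which degrades cGMP, fell from 36.2 ± 1.89 to 18.4 ± 6.23 and rose to 28.1 ± 4.43 (n = 4). The Pde5a rise was not called without AE-PF library 1 (0.0714) or ND-RHL library 1 (0.0526), 2 (0.0704) or 3 (0.0855). Ass1, which remakes arginine, rose too (log2 difference 0.78; named after its values were seen). With ND-RHL relative to AE-PF, 2 of the 15 rose and 4 fell, against 24.3% and 17.4% of all genes (list medians -0.03 and 0.05 in the 2 comparisons).

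Of 16 hypoxia targets, a set to which Adm and Edn1 belong in many cells, all passed the filter, and 6 rose and 3 fell in AE-PF, while 2 rose and 5 fell with ND-RHL. Of all genes tested, 26.4% rose and 30.2% fell in AE-PF, and 24.3% rose and 17.4% fell with ND-RHL. Ankrd37 rose from 1.13 ± 0.0908 to 10.3 ± 5.06 and fell to 1.52 ± 0.408, Ndrg1 from 5.00 ± 0.678 to 9.60 ± 1.19 and back to 4.31 ± 0.822, and the glucose transporter gene Slc2a1 from 9.18 ± 0.657 to 14.8 ± 3.07 and back to 7.73 ± 0.807 (n = 4). Vegfa (259 ± 28.4, 123 ± 40.8 and 190 ± 37.1) and the collagen hydroxylase gene P4ha1 (54.6 ± 7.57, 22.4 ± 3.50 and 24.8 ± 2.13) fell in AE-PF. The Vegfa rise with ND-RHL was 0.67 (adjusted p = 0.0361, limma), and 0.44 without AE-PF library 2, where it was not called (0.0724). The call was also lost without AE-PF library 1 (0.0866) or ND-RHL library 1 (0.0533), 2 (0.0837) or 3 (0.0968). The list had a median log2 difference of 0.24 in AE-PF minus saline and 0.02 in ND-RHL minus AE-PF, beside -0.03 and 0.06 for all genes.

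**Figure D5:**
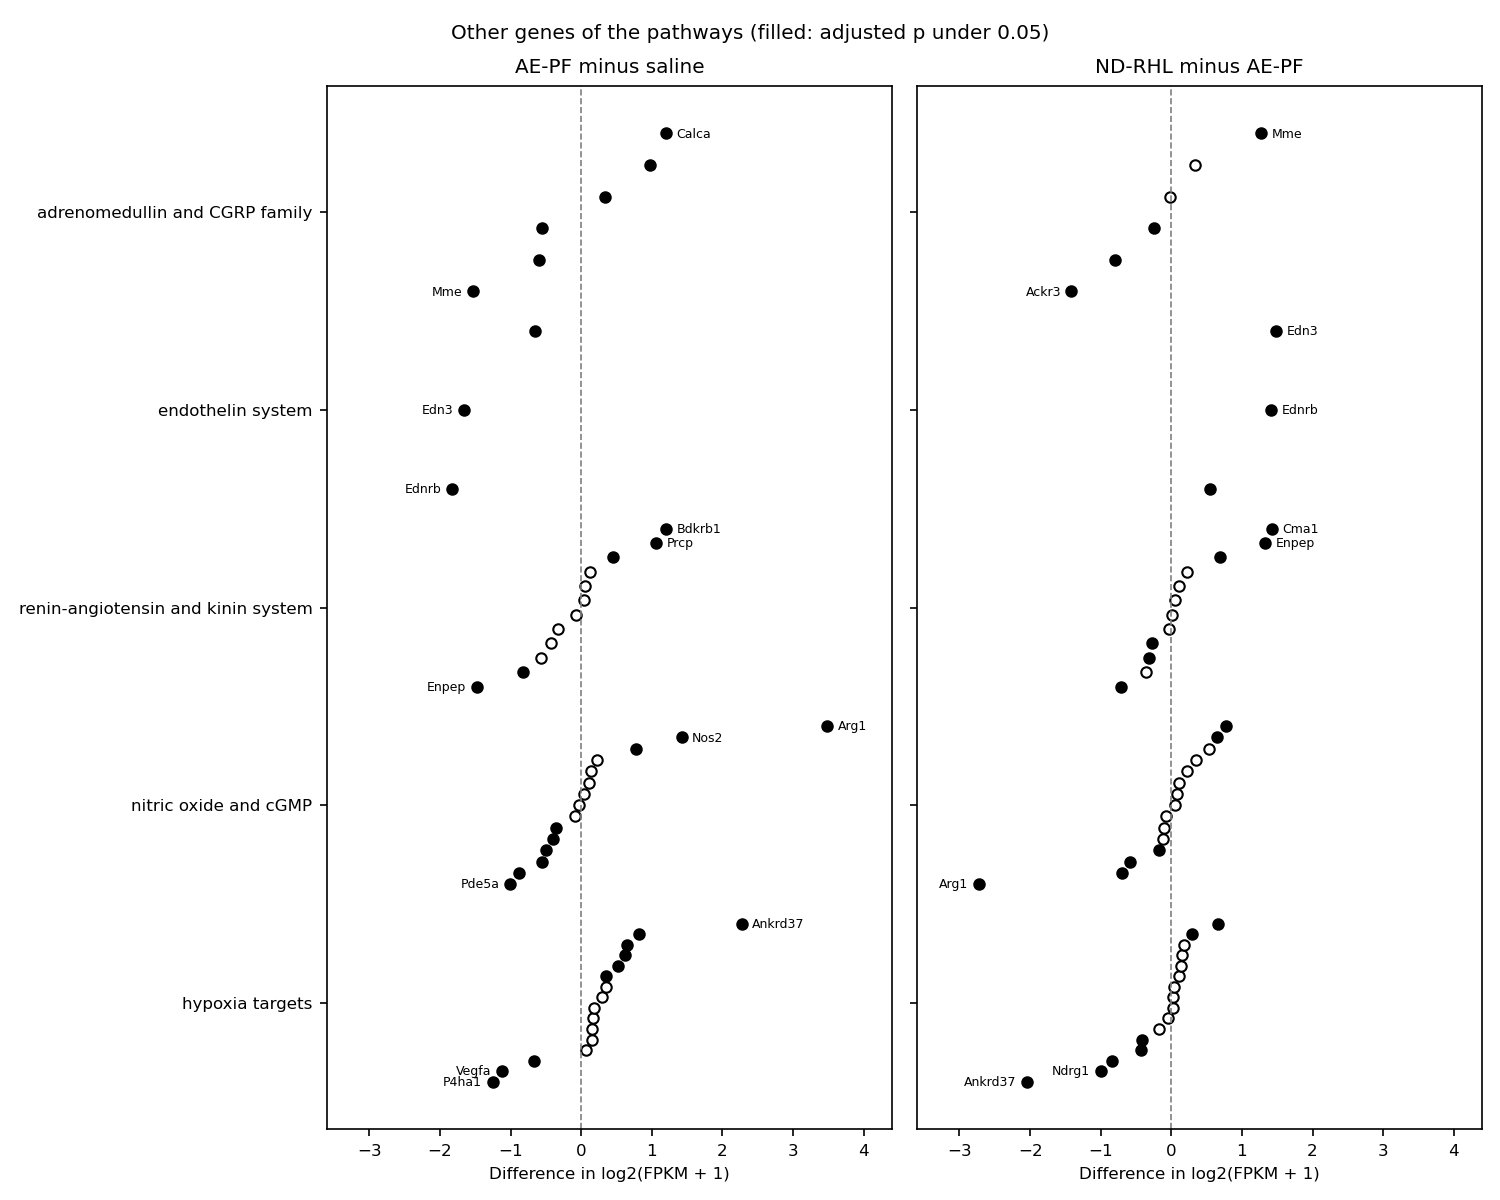
Differences in log2(FPKM + 1) (x axis) of the other pathway genes that passed the filter, by list (y axis), for AE-PF minus saline (left) and ND-RHL minus AE-PF (right). Filled points passed an adjusted p of 0.05, and genes past a difference of 1 are named. All 3 endothelin system genes lie left of 0 in the left panel and right of 0 in the right panel.

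For each member the genes with the most similar profile were found, by the mean absolute difference in log2 level relative to saline over the 12 libraries. Libraries of a group share their treatment, so likeness mostly follows group means. Ramp2 was closest to Rtp3, Coro2b and Eng (0.07, 0.08 and 0.09), of which Eng is among the 14 endothelial markers. Nos3 was closest to Hyal2, Trip10 and Marveld1 (0.09, 0.11 and 0.12), which like Nos3 had similar means in both challenged groups: Hyal2 stood at 32.1, 20.4 and 19.3 in saline, AE-PF and ND-RHL. Ramp3 was closest to Gnl3, Ltbp1 and Slc2a1 (0.11, 0.13 and 0.13). Edn1 was closest to Creb3l1, Unc5b and Cxcl12 (0.19, 0.20 and 0.21), and Adm to Samd1, Tmem200b and Cyp8b1 (0.20, 0.24 and 0.25), so that both ligand genes had no gene as close as the receptors did. Ace was closest to Tbx4 (0.06), Calcrl to Plekhh2 (0.09), Ramp1 to Rpia (0.08) and Ednra to Pcdhb17 (0.03).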

How the data were processed

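Lung RNA of 12 mouse samples was sequenced after poly(A) selection, 4 per group, and groups and replicate numbers came from the sample titles, which also name the columns. The authors deposited 1 table of FPKM values, not pooled. Per the submitters' processing notes, the tools were STAR 2.7.9a, Trim Galore 0.6.6, DESeq2 1.30.1, FastQC and, for counting, Subread 2.0.1 (featureCounts), with builds GRCm38 and mm10. The strand setting and the treatment of shared reads: not given in the sources used here. Of 34725 genes found in GENCODE M21 (GRCm38), 731 had the table's start, so coordinates are from GENCODE M21. Promoter sequences are from RefSeq (GRCm38.p6).

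Fragment totals (16152379 to 21667129) were recovered from the FPKM steps of single-exon genes: 35598 genes gave whole fragments within 1e-05. limma 3.58.1 in R 4.3.3 was fitted to log2(FPKM + 1) of 15164 genes that reached an FPKM of 1 in 4 or more libraries, with a variance trend, 2-sided tests, 9 residual degrees of freedom and Benjamini-Hochberg adjustment over all these genes. Adjusted p of single genes are from limma. Fold changes of low genes are understated on this scale. Shares and marker-relative levels used exact 2-sided permutation tests, whose smallest p for 4 against 4 is 0.0286. The scripts were tested on simulated data. A symbol on several rows was read from the row with the highest mean. No batch is given in the labels, and replicates are not said to be separate animals, so p-values reflect only how far these samples spread, which may be technical. The labels give same-numbered samples nothing in common but the number. Members and lists were chosen with earlier results of these data known. Named pathway genes were, per list, up to 3 called genes with the largest change in each of the first and second comparisons, plus Ednrb, Agt, Agtr1a, Nos2, Arg1 and Ece1; a further gene of that rule is not reported here. Genes most like a member were the 3 nearest with an established symbol. Alternatives covered pseudocount, filter, scaling, weights, block, left-out libraries and a count model.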

Additional observations from a re-analysis of the deposited data

Results flagged for a closer look

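Among 36 groups of 4 values examined (the 9 members and the 3 RAMP shares in 3 groups), a library lay far outside its group in 2 cases, and chance alone gives about 1 in 20. Ramp3 in AE-PF library 2 was 8.94, when the next highest AE-PF library had 4.81. The Ramp3 share in ND-RHL library 4 was 4.97% of RAMP FPKM, when the next highest ND-RHL library had 3.84%. These are the 2 libraries with squamous and skeletal muscle transcripts, whose part in these values was not tested. The Ramp3 calls against AE-PF held without either library.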

How the results depend on the processing

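Of 588 alternative values for the 27 member comparisons, 540 kept the call, 16 lost it, 32 gained it and 0 reversed it; Ramp3 and Nos3 have no value at an FPKM minimum of 5, where they were not tested. All calls of Ramp1, Ramp2, Ramp3, Nos3 (against saline), Edn1 and Ace (against AE-PF) held in every alternative run; Adm and Ednra lost theirs as given in the report, and also with no filter (0.0584 and 0.0628) and with only the 2 groups compared (0.0589 and 0.0748), Ednra with array weights too (0.0862). The number of genes called between AE-PF and saline was 8578, and 5710 at an FPKM minimum of 5, where fewer genes are tested. Members called between ND-RHL and saline were 3, and 5 with quantile normalisation (Ace and Edn1 added) and 5 with array weights. Leaving out 1 library gave 7633 to 8866, 4871 to 6348 and 2032 to 3962 genes called in the 3 comparisons (main values 8578, 6332 and 3323), the last being 2096 without saline library 1 and 2032 without saline library 2. It gave 4 to 5, 5 to 7 and 2 to 4 members. Ramp2 share differences ranged from -15.5 to -12.6, 7.98 to 11.4 and -5.68 to -2.85 percentage points. As the log2 difference of Ramp2 and Ramp1, the difference between ND-RHL and AE-PF was 0.31 (adjusted exact permutation p = 0.314). With Pdgfrb and Notch3 alone, Ednra relative to mural markers turned to -0.15 in AE-PF minus saline and 0.33 in ND-RHL minus AE-PF. Where no cause is given, the cause was not tested. Calls between AE-PF and saline were 46.7% higher, and 63.0% with equal FPKM totals; between ND-RHL and AE-PF 58.2%, 37.8% with equal totals and 46.4% with quantile normalisation; and between ND-RHL and saline 60.5%, 67.2% and 43.5%. With the replicate block, 8471, 6061 and 2916 genes and 4, 6 and 4 members were called. Of 12 same-numbered pairs 5 correlated above 0.1 (-0.39 to 0.40), and 4 of 12 libraries correlated best with a library of their own number. So few pairs cannot show whether same-numbered samples shared a batch. limma-voom on recovered fragments called 8592, 6385 and 3412 genes and 6, 6 and 3 members. Depth limits Ramp3 most, at 55 to 223 fragments a library.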
